A study of Mus musculus with 6 samples.

Results

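The genes described here carry long-chain fatty acids into the muscle fibre, move them into mitochondria, oxidise them there, set the balance between fat and glucose as fuel, and store or release fat in lipid droplets. They are 40 genes, listed by symbol and matched to 40 of the 57010 Ensembl gene IDs in the deposited counts. All 40 passed the filter on low counts, as did 15589 genes in all. RNA was measured in the gastrocnemius, a mostly fast-fibred calf muscle, of 6 untreated mice aged 3 months. The mutants were 3 homozygotes for the prmd allele of Dysf in strain B6.A-Dysfprmd/GeneJ (BLAJ), in which an intronic retrotransposon insertion derived from strain A/J is known to abolish dysferlin, the membrane repair protein of the muscle fibre. The 3 controls were wild-type animals labelled C57BL/6. Mutant replicates 1 and 2 were the only females, since mutant replicate 3 was male like every control.

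Fatty acids reach the fibre from circulating lipoproteins, cross its membrane with the help of transporters and are bound to coenzyme A. The carnitine shuttle then passes them into the mitochondrion, where beta-oxidation removes carbon pairs one after another and hands the electrons to the respiratory chain. Many of these genes are targets of the PPAR nuclear receptors, and their messages in muscle are known to respond to fasting, exercise and circulating fatty acids. Slow and oxidative fibres carry more of this machinery than fast glycolytic fibres. What the animals had eaten and the hour of dissection are not given in the sources used here.

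Several properties of the libraries bear on every value below. The deposited matrix held 35042245 to 43733641 read pairs per library. Dysf was at 72.3 to 145 CPM (counts scaled to library size) in controls and 14.7 to 20.3 CPM in mutants (log2 -2.64, edgeR adjusted p = 0.0249), which matches the labels. C57BL/6 mice are known to express little or no Ifi202b and H2-Ea-ps. In the controls Ifi202b stood at 1.02 to 7.69 CPM, against 0 in mutants, and the control level of H2-Ea-ps was 2.37 to 3.44 CPM, against at most 0.0264 in mutants. This goes against the strain label of the controls, and other strain differences cannot be told apart from the loss of dysferlin. Control replicate 2 stood apart in Sln, at 678 CPM against at most 14.6 CPM elsewhere, and in the fetal acetylcholine receptor gene Chrng, at 20.1 CPM against at most 0.749 CPM. Among 12 markers of the muscle fibre, summed levels of 157839 to 203667 CPM matched the labelled tissue, and the heart genes Nppa, Tnni3 and Myl7 were at most 0.331 CPM. Myh6, the other heart gene examined, stood at 60.5, 34.9 and 14.9 CPM in controls and 2.83, 0.799 and 3.08 CPM in mutants (log2 -4.03, edgeR adjusted p = 0.224), with no overlap. In whole muscle, fewer cells of a type and less RNA per cell cannot be told apart.

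No member passed the test between mutants and controls. In simulated data this test recovered 19.35% of 2-fold changes, so a lack of calls says little about changes of that size or smaller. Of the 15589 genes tested, 0.199% had an edgeR adjusted p below 0.05 (31 genes, 2 higher and 29 lower in mutants), and 0 of the 40 members did, with adjusted p-values from 0.557 to 0.995. Their fitted fold changes nevertheless lay mostly on one side. In 38 of 40 members the log2 fold change, mutant minus control, was above 0, against 49.8% of all genes tested, and the median was 0.30 against -0.00154 over all genes. These shares, and those of groups that do not overlap below, are description only. The members were chosen with earlier results of these data known, and many rose and fell together from library to library. The number above 0 was 34 to 38 with single libraries left out, and the median was 0.17 without control replicate 2, 0.20 without mutant replicate 1 and 0.40 without control replicate 1. At an unadjusted p below 0.05 there were 4 members on the higher side and 0 on the lower, where the shares of all genes were 3.25% and 3.69%. The authors' deposited table held 40 members and called 0 of them, the smallest adjusted p being 0.201 for Acot2, whereas 1.19% of the genes with an adjusted p in that table were called.

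In 6 members (15.0%) all 3 mutants lay above all 3 controls, against 5.97% of all genes tested. No member had all mutants below all controls, against 6.09% of all genes. The 6 were Cpt1a, Cpt1b and Slc22a5 of the carnitine system, the thioesterase gene Acot2, the malonyl-CoA decarboxylase gene Mlycd and the kinase gene Pdk2. Their ratios of mean CPM, mutant over control, were between 1.20 and 1.71.

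**Figure D1:**
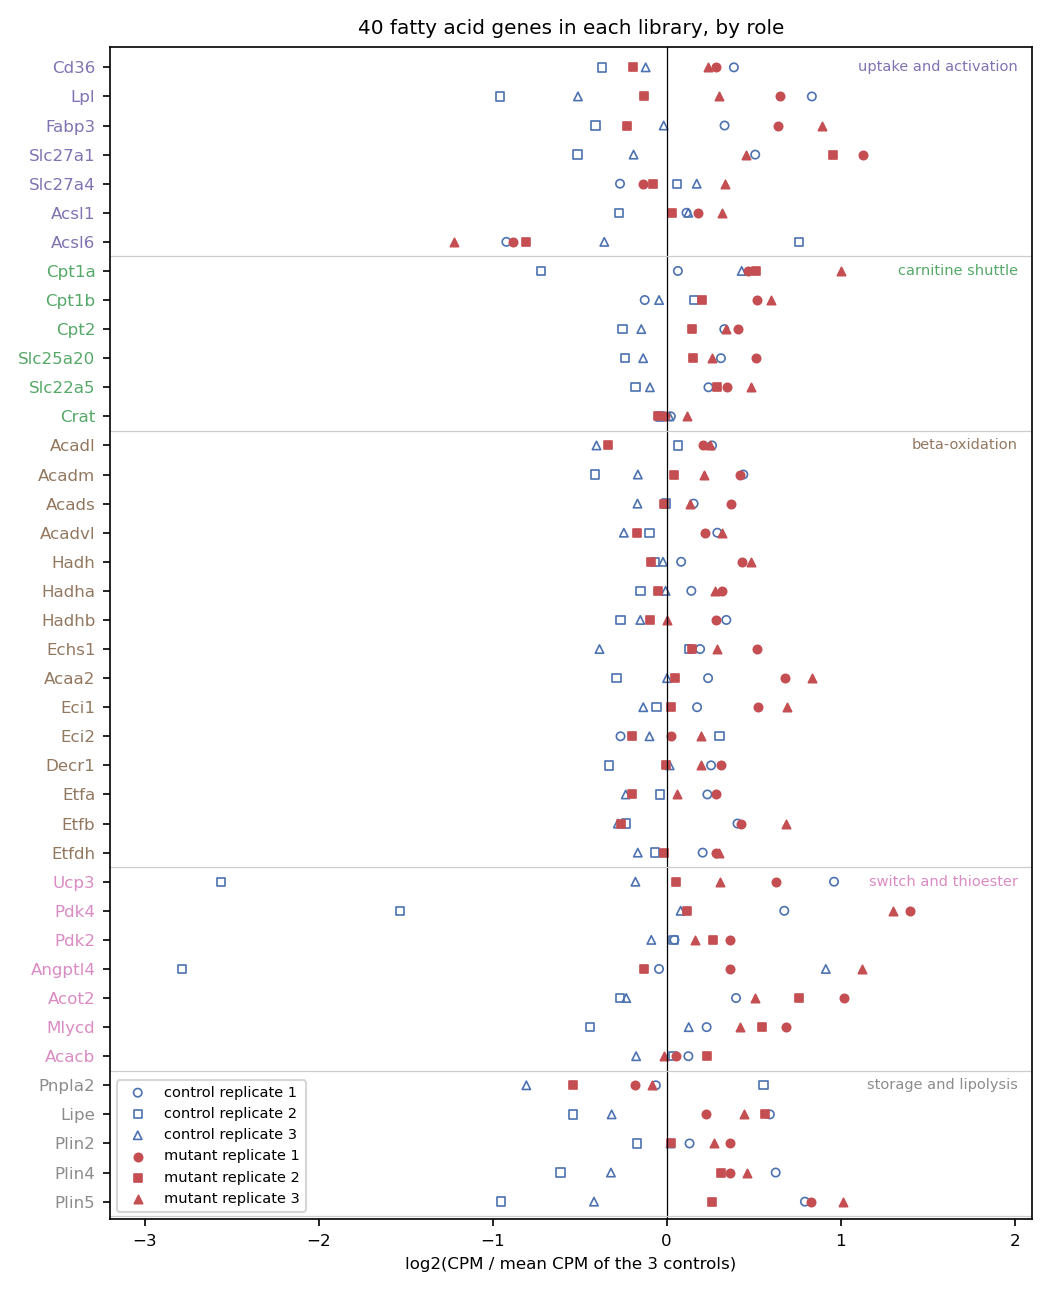
Level of each of the 40 genes in each library, as log2 of its CPM over the mean CPM of the 3 controls (horizontal axis), with genes grouped by role. Open blue symbols are controls and filled red symbols mutants; control replicate 2 (open square) is the lowest library in 23 of the 40 genes.

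The spread between animals of one group was as large as the difference between groups for most members. The library-wide level of the pathway was summarised as the median, over the 40 members, of log2 CPM minus the control mean of that gene. For the controls, in replicate order, it was 0.26, -0.21 and -0.12, and for the mutants 0.41, 0.05 and 0.34. The groups overlapped, because mutant replicate 2 lay below control replicate 1. Control replicate 1 was the highest control in 32 of 40 members, and mutant replicate 2 the lowest mutant in 31 of 40. Control replicate 1 also had the largest share of pairs mapping to more than 1 place, 9.78% against 5.83% to 7.52% in the other libraries. The library names of control replicates 2 and 3 contain the word black, and that of control replicate 1 does not. The part of these differences was not tested. Control replicate 2 was the lowest of all 6 libraries in 23 members and control replicate 3 in 11.

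Slow fibre markers were described in the same libraries. The 8 slow fibre markers (Myh7, Myl2, Myl3, Tnnt1, Tnni1, Tnnc1, Atp2a2 and Myoz2) summed to 3801, 2039 and 664 CPM for the controls and to 4660, 1250 and 3320 CPM for the mutants, each in replicate order. The same 3 libraries, control replicate 1 and mutant replicates 1 and 3, were thus highest in both measures. All 8 slow markers had a fold change above 0, with a median log2 value of 0.47, and 0 were called. The 18 nuclear genes chosen as a gauge of mitochondrial content, such as Cs, Sdha and Atp5b, summed to 12525 to 14894 CPM in controls and 11695 to 15502 CPM in mutants, with 12 of 18 above 0 and a median of 0.05. The same 3 libraries were highest here too, at 14894, 14605 and 15502 CPM, against 11695 to 12755 CPM in the others. The match between libraries was therefore not particular to slow fibre markers. The part of slow fibre content in the members' values was not tested.

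Fat cells and vessel cells also hold many of these messages. Of 12 adipocyte markers, 11 had a fold change above 0 with a median of 0.92, and 0 were called. Car3, which muscle fibres express strongly, was the 1 marker below 0 (log2 -0.16). With it, the 12 markers summed to 2105, 5859 and 1851 CPM in the controls and 3505, 2882 and 2942 CPM in the mutants. Without Car3, their summed level was 339, 172.4 and 233 CPM in the controls and 266, 476 and 444 CPM in the mutants. The groups overlapped either way. No adipocyte marker was at 0 in any library, and the fat hormone gene Adipoq stood at 14.8, 5.08 and 8.29 CPM in controls and 9.20, 31.3 and 22.0 CPM in mutants. The 10 endothelial markers summed to 350 to 419 CPM in controls and 381 to 528 CPM in mutants, with 9 of 10 above 0. Control replicate 1 and mutant replicates 1 and 3 were again highest in them, at 419, 426 and 528 CPM. The 10 macrophage markers summed to 117 to 187 CPM in controls, with control replicate 1 at 131 CPM. They summed to 138 to 238 CPM in mutants, with 9 of 10 above 0. Of 3 brown fat markers, Ucp1 was at 0 in all mutants and in control replicate 1, and at 0.997 and 0.153 CPM in control replicates 2 and 3. Cidea was at 0.636 to 1.25 CPM in controls and 0.551 to 1.08 CPM in mutants. Dio2 was at 2.72 to 4.14 CPM in controls and 3.33 to 7.32 CPM in mutants. The part of these cell types in the members' values was not tested.

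**Figure D2:**
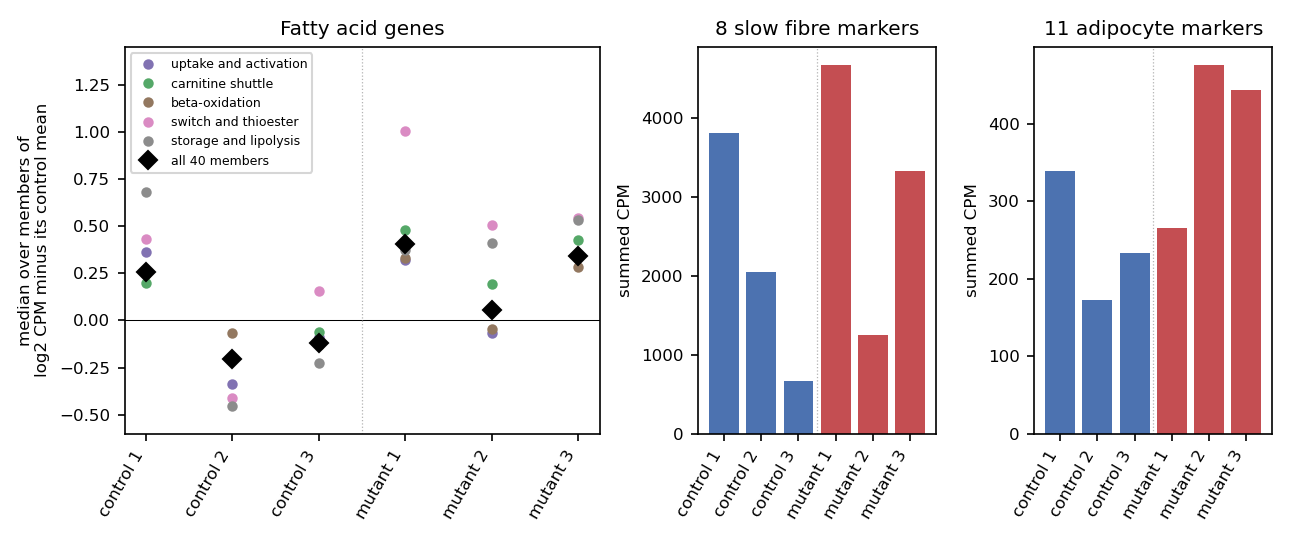
Left, median over the members of log2 CPM minus the control mean, for each role group and for all 40 genes (black diamonds), by library; middle and right, summed CPM of 8 slow fibre markers and of 11 adipocyte markers (Car3 left out). Control replicate 1 and mutant replicates 1 and 3 were high in the 40 genes and in the slow fibre markers, and mutant replicates 2 and 3 were highest in the adipocyte markers.

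No gene of uptake and activation was called. The 7 members had a median log2 fold change of 0.18, with 6 above 0. The median was 0.06 without control replicate 2, 0.11 without mutant replicate 3 and 0.36 without control replicate 1. Slc27a1 encodes FATP1, a fatty acid transport protein of muscle and fat. It stood, in replicate order as in all such values below, at 68.6, 33.8 and 42.2 CPM in controls and 105, 93.4 and 66.2 CPM in mutants. The female mutants lay above every control, and the male mutant lay just below control replicate 1. The log2 fold change was 0.87 (SE 0.29, edgeR adjusted p = 0.652), and the means were 48.2 ± 18.2 and 88.3 ± 20.1 CPM (SD, n = 3 each). With sex as a covariate the log2 value was 0.46. Since every female was a mutant, that value sets the male mutant alone against the controls. Slc27a4, the related transporter FATP4, was at 10.3 to 14.03 CPM in controls and 11.3 to 15.7 CPM in mutants.

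Fabp3 encodes the cytoplasmic fatty acid binding protein of heart and muscle. It was the most abundant member of its group per length, at 253 CPM per kb of exon in controls and 361 in mutants. By library it was at 263, 157 and 206 CPM in controls and 325, 178 and 387 CPM in mutants, with mutant replicate 2 inside the control range (log2 0.51, SE 0.32, edgeR adjusted p = 0.823). Cd36, the fatty acid translocase of the sarcolemma, was at 229 to 387 CPM in controls and 259 to 361 CPM in mutants. Lpl, the lipase that frees fatty acids from lipoproteins at the vessel wall, was at 1106, 319 and 436 CPM in controls and 976, 566 and 764 CPM in mutants. Its direction rested on control replicate 2, the fitted log2 value being 0.31 with all libraries and -0.00491 without that one.

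Acyl-CoA synthetases trap fatty acids by joining them to coenzyme A. Acsl1, the main form in muscle, was at 242 to 319 CPM in controls and 299 to 365 CPM in mutants (log2 0.18, SE 0.17). Acsl6 was the member with the lowest fold change. It stood at 20.4, 65.3 and 30.1 CPM in controls and 20.9, 22.0 and 16.5 CPM in mutants, so control replicate 2 was far above the rest and control replicate 1 lay among the mutants. The log2 fold change was -0.96 (SE 0.41, edgeR adjusted p = 0.727), and -0.35 without control replicate 2. Acsl3, Acsl4 and Acsl5, long-chain synthetase genes of a wider list, had fold changes of the same sign. Acsl3 stood at 32.4, 69.8 and 46.8 CPM in controls and 18.4, 29.0 and 17.8 CPM in mutants, with no overlap (log2 -1.19, SE 0.32, edgeR adjusted p = 0.496). Its DESeq2 adjusted p was 0.0398, the lowest of its alternatives, which reached up to 1.00. Acsl4 was at 38.5 to 64.4 CPM in controls and 36.0 to 40.9 CPM in mutants, and Acsl5 at 6.96 to 9.23 and 5.98 to 8.88 CPM.

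Promoters of the members were searched for the response elements of nuclear receptors that act on this pathway. RefSeq promoters of build GRCm38.p6, from 250 bases before to 50 after the start, were available for 34 of the 40 members and for 27025 genes in all. The PPAR element, searched as AGGTCANAGGTCA on both strands with up to 1 mismatch, was found in 0 of 34 members and in 0.644% of all genes. The element of the estrogen-related receptors, searched as TCAAGGTCA on both strands without mismatch, was found in 1 of 34 members (2.94%) and in 0.466% of all genes. That gene was Acsl6, and the window is printed because it is the single match. It begins 167 bases before one of its annotated starts, on the strand opposite to the gene, at chr11:54303651-54303671 with 6 flanking bases on each side. Written on the gene's plus strand, with the match in capitals, it reads as follows.
Acsl6: ccaaccTGACCTTGAgcattc
A match describes letters in a window, and the data hold no measure of binding there.

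The carnitine shuttle held 3 of the 6 members whose groups did not overlap, which is 50% of its genes, against 5.97% of all genes on the higher side. All 6 genes of this group had a fold change above 0, with a median log2 value of 0.35, and 0 were called. Carnitine palmitoyltransferase 1 forms acylcarnitines at the outer mitochondrial membrane and is the regulated step of fatty acid entry. Cpt1a, the form known from liver, stood at 11.1, 6.41 and 14.3 CPM in controls and 14.6, 15.1 and 21.2 CPM in mutants. The gap between mutant replicate 1 and control replicate 3 was small beside the spread within the controls (log2 0.68, SE 0.30, edgeR adjusted p = 0.738).

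Cpt1b is the muscle form, yet its counted level was low, at 1.25, 1.52 and 1.32 CPM in controls and 1.96, 1.57 and 2.06 CPM in mutants (log2 0.45, SE 0.25, edgeR adjusted p = 0.805). In GENCODE M21, 81.4% of its exon sequence is shared with Gm44502, an annotated gene on the same strand. Gm44502 had 0 counts in the 6 libraries and Cpt1b had 381 in all, with and without strand information. Where pairs in exons of more than 1 gene are left out of counts, such a level is too low. The level of Cpt1b is therefore uncertain and is not set against that of Cpt1a.

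Slc22a5 encodes OCTN2, the carnitine transporter of the plasma membrane. It was at 11.8, 8.84 and 9.36 CPM in controls and 12.7, 12.2 and 13.97 CPM in mutants, with no overlap (log2 0.37, SE 0.16, edgeR adjusted p = 0.725). Slc25a20, the carnitine-acylcarnitine translocase of the inner membrane, stood at 79.0, 53.9 and 57.9 CPM in controls and 90.9, 70.8 and 76.2 CPM in mutants. Here mutant replicates 2 and 3 lay below control replicate 1 (log2 0.32, SE 0.18, edgeR adjusted p = 0.812). Cpt2, which releases the acyl group inside the mitochondrion, was at 46.7 to 70.1 CPM in controls and 61.7 to 74.0 CPM in mutants. Crat encodes carnitine acetyltransferase, which buffers acetyl-CoA. It was the most abundant gene of this group per length (85.6 and 86.8 CPM per kb in controls and mutants), and stood at 469, 449 and 466 CPM in controls and 458, 446 and 499 CPM in mutants (log2 0.02, SE 0.13).

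Enzymes of beta-oxidation had small fold changes of one sign. All 15 members were above 0, from 0.02 to 0.56 on the log2 scale with a median of 0.19, and in none were the groups apart. The median was 0.13 without mutant replicate 1, 0.29 without mutant replicate 2 and 0.30 without control replicate 1. Acaa2, the mitochondrial thiolase that cuts off acetyl-CoA, had the highest fold change of the group. It stood at 129, 89.7 and 110 CPM in controls and 175, 113 and 196 CPM in mutants, where mutant replicate 2 lay inside the control range and the other mutants above it (log2 0.56, SE 0.24, edgeR adjusted p = 0.715). Eci1, an isomerase needed for unsaturated fatty acids, also had mutant replicate 2 inside the control range, at 76.6, 65.2 and 61.8 CPM in controls and 97.5, 69.0 and 109 CPM in mutants (log2 0.44, SE 0.19, edgeR adjusted p = 0.734). Eci2, the related isomerase, was at 35.6 to 52.8 CPM in controls and 37.2 to 49.0 CPM in mutants.

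Echs1 and Hadh act on short acyl chains. Echs1, the short-chain enoyl-CoA hydratase, stood at 112, 107 and 74.9 CPM in controls and 140, 108 and 119 CPM in mutants (log2 0.32, SE 0.19, edgeR adjusted p = 0.814). Hadh, which oxidises the hydroxyacyl intermediate, was at 134, 121 and 125 CPM in controls and 171, 119 and 177 CPM in mutants (log2 0.30, SE 0.18, edgeR adjusted p = 0.814). In Hadh, mutant replicate 2 was the lowest of all 6 libraries although the other mutants were the highest. The trifunctional protein, which acts on long chains, is made from Hadha and Hadhb. Hadha was at 322 to 395 CPM in controls and 346 to 446 CPM in mutants, and Hadhb at 215 to 328 and 242 to 315 CPM.

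Acyl-CoA dehydrogenases open each cycle and differ in the chain length they accept. Per length, Acadl was the most abundant counted gene of the group, at 131 CPM per kb in controls and 137 in mutants. This rank depends on the merged length of annotated exons, 2005 bases for Acadl against 8730 for Hadha. Without length, the control mean was higher for Hadha (358 CPM) than for Acadl (263 CPM). Acadl stood at 315, 275 and 199 CPM in controls and 304, 208 and 312 CPM in mutants (log2 0.06, SE 0.23). The groups spanned almost the same range. Acadm was at 207 to 374 CPM in controls and 284 to 369 CPM in mutants, Acads at 68.3 to 85.4 and 75.8 to 99.3 CPM, and Decr1, the dienoyl-CoA reductase, at 86.6 to 130 and 109 to 135 CPM. The electron carriers that drain these enzymes were equally close. Etfa was at 180 to 250 CPM in controls and 185 to 259 CPM in mutants, and Etfdh at 124 to 161 and 138 to 171 CPM.

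The level of some of these genes differed between counts with and without strand information. Acadvl, the very-long-chain dehydrogenase, overlaps Dvl2 on the opposite strand over 42.9% of its exon sequence. Its total over the 6 libraries was 81529 pairs in the strand-matched counts and 37031 in the deposited matrix, a ratio of 2.20. By library, as CPM of each count's own total, the strand-matched level was 378, 281 and 244 in controls and 374, 285 and 376 in mutants, against 181, 140 and 121 and 178, 137 and 181 in the matrix. The comparison of groups moved little, with a log2 fold change of 0.14 in the matrix and 0.17 with strand. The same ratio was 1.53 for Lipe, 1.52 for Acsl6 and 1.41 for Eci2. Etfb, the other subunit of the electron carrier, shares 58.2% of its exon sequence with genes on its own strand, which strand information does not resolve, and its 5.09 to 8.19 CPM in controls and 5.15 to 9.95 CPM in mutants are uncertain for the same reason as those of Cpt1b.

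Acsl6 had reads on both strands. Of its strand-assigned pairs, 45.3% lay on the opposite strand, against 0 to 1.47% in the other members. In all libraries together, 10798 pairs were on its own strand and 8955 on the opposite, whereas the matrix counted 7123. The opposite-strand level, scaled to each library's strand-matched total, was 37.9, 27.2 and 34.5 CPM in controls and 49.0, 41.8 and 24.6 CPM in mutants. The groups overlapped. On its own strand, Acsl6 was at 27.1, 108 and 37.8 CPM in controls and 25.8, 28.4 and 20.4 CPM in mutants, with a log2 fold change of -1.24 (edgeR adjusted p = 0.688) against -0.96 in the matrix. Control replicate 2 was thus the highest in sense reads and the lowest control in opposite-strand reads. In GENCODE M21 the annotated gene Gm12224 lies opposite to 2.04% of the exon sequence of Acsl6.

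**Figure D3:**
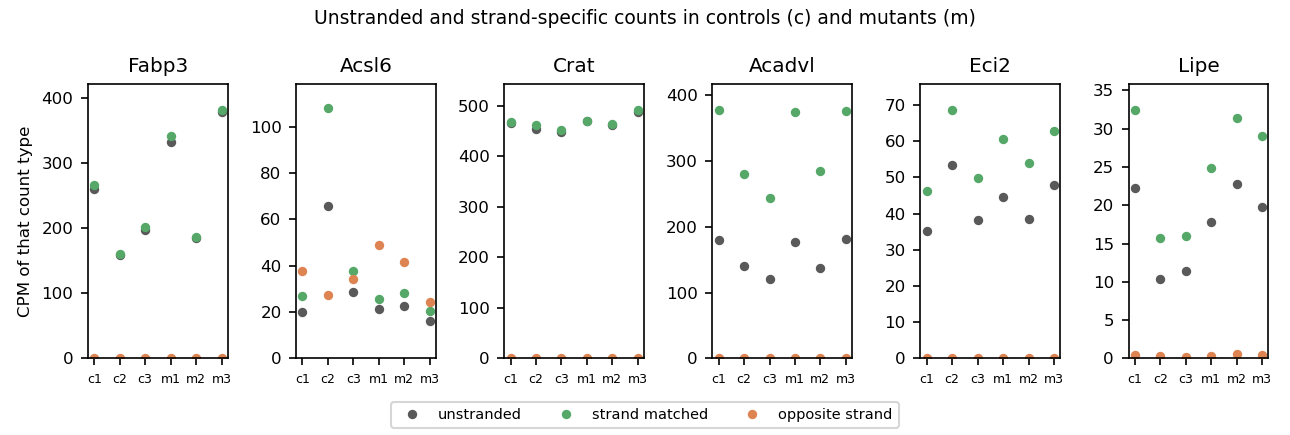
Unstranded, strand-matched and opposite-strand CPM in controls (c1 to c3) and mutants (m1 to m3) for the 6 members with the highest ratio of strand-matched to unstranded totals. Opposite-strand values are scaled to each library's strand-matched total, although the axis names each count's own type. Acadvl was higher with strand in every library, and of these 6 only Acsl6 had opposite-strand reads of the same order as its own.

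Genes of fuel choice were not called. The 7 members were all above 0, with a median log2 value of 0.55, and 3 had groups that did not overlap (42.9%, against 5.97% of all genes on the higher side). The median was 0.29 without control replicate 2. Acot2, a mitochondrial thioesterase that frees fatty acids from coenzyme A, had the smallest p of all 40 members. It stood at 10.8, 6.80 and 6.97 CPM in controls and 16.6, 13.9 and 11.7 CPM in mutants, with means of 8.18 ± 2.26 and 14.03 ± 2.46 CPM (SD, n = 3 each). The log2 fold change was 0.78 (SE 0.23, edgeR unadjusted p = 0.0119, adjusted p = 0.557). The male mutant was the lowest of the mutants, 11.7 against 10.8 CPM in the nearest control. With sex as a covariate, which sets this animal alone against the controls, the log2 value was 0.51.

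Mlycd and Acacb act on malonyl-CoA, the inhibitor of carnitine palmitoyltransferase 1. Mlycd, which degrades it, was at 80.5, 50.5 and 75.0 CPM in controls and 110, 100 and 91.9 CPM in mutants, with no overlap (log2 0.55, SE 0.19, edgeR adjusted p = 0.655). Acacb, which makes it at the mitochondrial surface, was at 356, 334 and 289 CPM in controls and 338, 383 and 323 CPM in mutants, with overlapping groups (log2 0.09, SE 0.15). The male mutant again lay lowest among the mutants in both genes.

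Pyruvate dehydrogenase kinases hold back glucose oxidation. Pdk2 was the most abundant gene of the group per length, at 127 CPM per kb in controls and 153 in mutants, against 74.0 and 152 for Pdk4. It stood at 416, 414 and 379 CPM in controls and 519, 485 and 450 CPM in mutants. The groups did not overlap, and the log2 fold change was 0.27 (SE 0.14, edgeR adjusted p = 0.779). Pdk4, known to be raised by fasting, had the highest fold change of the 40 members with all libraries, 2.06-fold. It stood at 415, 89.7 and 275 CPM in controls and 685, 281 and 640 CPM in mutants, so mutant replicate 2 fell inside the control range (log2 1.04, SE 0.58, edgeR adjusted p = 0.805). The value was 0.63 without control replicate 2, the lowest library.

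Control replicate 2 was also the lowest library in a pair of further genes known to respond to fasting. That library was the lowest in 23 members in all, so the low values were not particular to such genes. Foxo1, a transcription factor of fasting, went the other way. It stood at 50.2 CPM in control replicate 2, above control replicate 3 and every mutant. A part of feeding in these values was not tested. Ucp3, a mitochondrial carrier of muscle, stood at 187, 16.3 and 84.9 CPM in controls and 149, 99.9 and 119 CPM in mutants. All 3 mutants lay between the extremes of the controls (log2 0.35, SE 0.75), and the value was -0.15 without control replicate 2. Angptl4, the secreted inhibitor of lipoprotein lipase, was at 4.40, 0.657 and 8.54 CPM in controls and 5.84, 4.13 and 9.87 CPM in mutants (log2 0.55, SE 0.79), and at 0.03 on the log2 scale without that library.

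**Figure D4:**
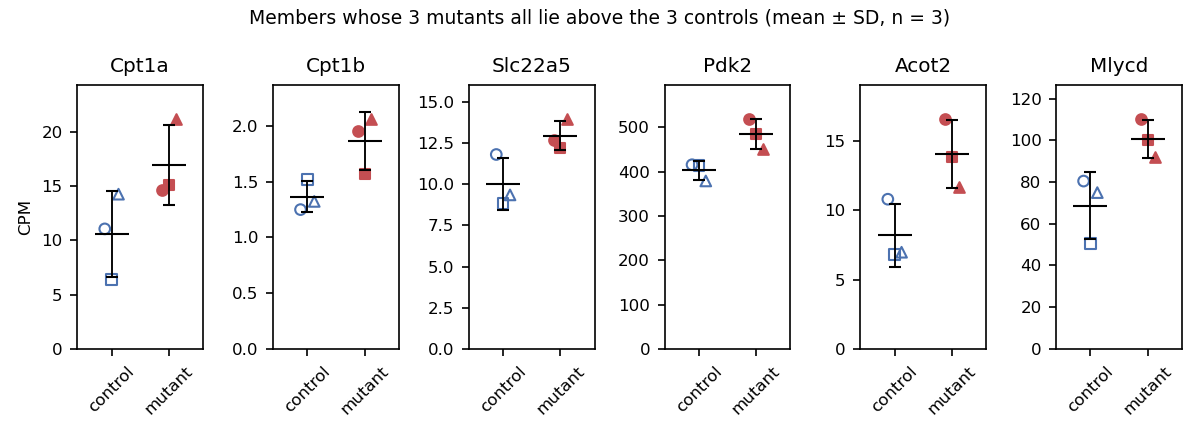
CPM of the 6 members whose mutants all lay above the controls, by animal, with the mean and SD of 3 animals (bars); circles, squares and triangles are replicates 1, 2 and 3. Male mutant replicate 3 (triangle) was the lowest mutant in Pdk2, Acot2 and Mlycd and the highest in Cpt1a, Cpt1b and Slc22a5.

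All lipid droplet genes among the members had overlapping groups. The 5 members had a median log2 fold change of 0.38, with 4 above 0, and the median was 0.83 without control replicate 1, 0.15 without control replicate 2 and 0.24 without control replicate 3. Pnpla2 encodes adipose triglyceride lipase, the enzyme that opens triglyceride breakdown, and was the most abundant of the group per length. It stood at 234, 360 and 140 CPM in controls and 215, 168 and 231 CPM in mutants (log2 -0.26, SE 0.33, edgeR adjusted p = 0.931), and its sign turned without control replicate 2 (0.13). Lipe, hormone-sensitive lipase, was at 22.4, 10.2 and 11.9 CPM in controls and 17.4, 22.0 and 20.2 CPM in mutants. Plin5, the perilipin that ties droplets to mitochondria, was at 18.9, 5.62 and 8.14 CPM in controls and 19.4, 13.0 and 22.0 CPM in mutants (log2 0.74, SE 0.45). In both genes control replicate 1 reached the level of the mutants and the other controls did not. Without control replicate 1 the log2 value was 1.39 for Plin5 and 0.84 for Lipe, and without control replicate 2 it was 0.42 and 0.21.

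Plin2 and Plin4 coat droplets of muscle and other tissues. Plin2 was at 26.2 to 32.3 CPM in controls and 30.0 to 38.0 CPM in mutants (log2 0.23, SE 0.14). Plin4 was at 296, 125 and 153 CPM in controls and within 238 to 263 CPM in mutants (log2 0.38, SE 0.31), and its log2 value was 0.83 without control replicate 1 and 0.15 without control replicate 2. The mutants were closer to each other than the controls were, with an SD of 13.1 against 91.3 CPM.

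**Figure D5:**
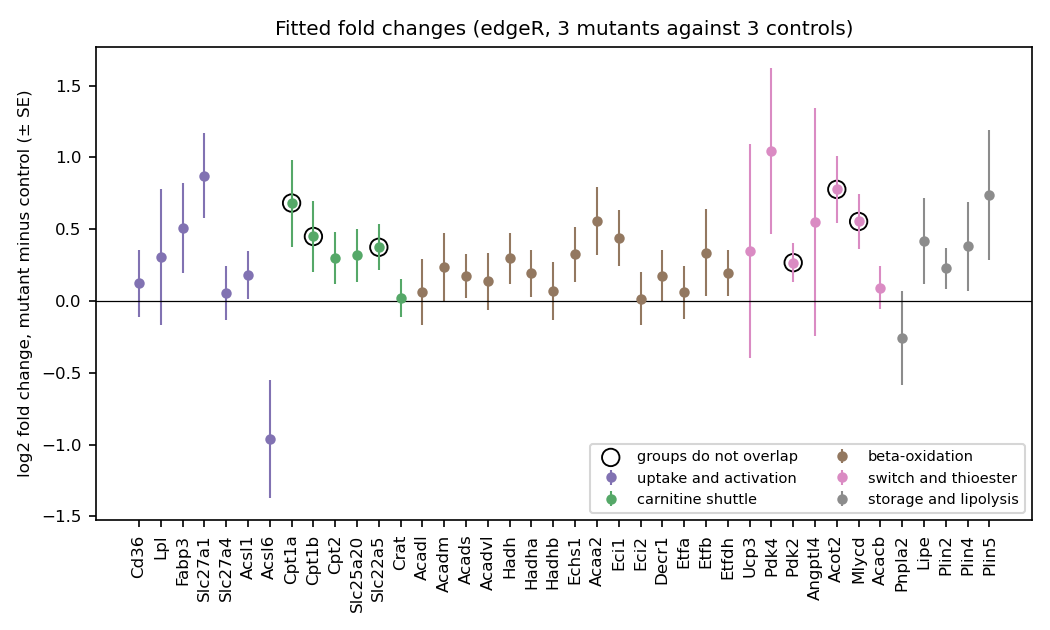
Fitted log2 fold change of each member, mutant minus control, with its standard error (bars), coloured by role; rings mark the 6 genes whose groups did not overlap. All but Acsl6 and Pnpla2 lie above 0, and none passed an edgeR adjusted p of 0.05.

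Other genes of the pathway were described through lists of 122 genes, of which 120 were tested. None was called, 81 (67.5%, against 49.8% of all genes) had a fold change above 0 and the median log2 value was 0.12. The groups did not overlap in 15 on the higher side (12.5%, against 5.97% of all genes) and 5 on the lower (4.17%, against 6.09%). These lists too were chosen with earlier results of these data known, so the shares are description only. Gpam, which starts triglyceride synthesis at the mitochondrial surface, had the smallest p among them. It stood at 143, 171 and 180 CPM in controls and 289, 274 and 282 CPM in mutants, with a wide gap between groups and an SD of 7.39 CPM in the mutants (log2 0.77, SE 0.14, edgeR adjusted p = 0.205). Over the alternatives the log2 value of Gpam lay between 0.68 and 0.83 and the adjusted p between 0.00022 in DESeq2 and 0.998 in males only. Dgat2, which completes the triglyceride, was at 17.6 to 45.2 CPM in controls and 41.8 to 72.8 CPM in mutants, and Plin1, the perilipin of fat cells, at 5.34 to 12.3 and 7.06 to 23.1 CPM.

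Peroxisomal oxidation had a median of 0.38 over 14 genes, with 11 above 0, 4 apart on the higher side (28.6%, against 5.97% of all genes) and 0 called. Hsd17b4, the bifunctional enzyme of the peroxisome, was at 61.7, 54.3 and 57.7 CPM in controls and 80.8, 76.6 and 68.2 CPM in mutants (log2 0.38, SE 0.12, edgeR adjusted p = 0.618). Catalase, encoded by Cat, was at 77.8, 88.6 and 49.1 CPM in controls and 122, 107 and 97.7 CPM in mutants, and Acox3, a peroxisomal acyl-CoA oxidase, at 15.3 to 20.6 and 20.5 to 25.0 CPM. Against these, Crot, which makes carnitine esters for export from the peroxisome, was lower in every mutant, at 63.5, 64.5 and 61.3 CPM in controls and 46.8, 52.4 and 45.7 CPM in mutants (log2 -0.39, SE 0.11, edgeR adjusted p = 0.55). Crot, the peroxisomal thiolase gene Acaa1a and Nudt7, a peroxisomal coenzyme A hydrolase, were counted among 24 tested genes of further fatty acid and ketone oxidation. Of these, 18 were above 0, 5 were apart on the higher side (20.8%, against 5.97% of all genes) and 1, Crot, on the lower (4.17%, against 6.09%). Acaa1a was at 22.6 to 42.3 CPM in controls and 43.6 to 49.2 CPM in mutants, and Nudt7 at 6.77 to 15.7 and 16.5 to 20.4 CPM.

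No nuclear receptor or coactivator of the pathway was called. Of 16 regulators, 11 were above 0 with a median of 0.15. Klf15, a transcription factor of muscle lipid use, was at 30.7, 37.6 and 10.6 CPM in controls and 58.1, 51.3 and 49.2 CPM in mutants (log2 1.01, SE 0.42, edgeR adjusted p = 0.719). Ppargc1b, a coactivator of the estrogen-related receptors, was at 4.79, 8.72 and 6.33 CPM in controls and 10.4, 7.94 and 17.8 CPM in mutants. Foxo1, a transcription factor of fasting, was at 53.1, 50.2 and 18.7 CPM in controls and 19.8, 18.4 and 26.7 CPM in mutants, with control replicate 3 among the mutants. The receptor gene Ppara was at 4.27 to 12.4 CPM in controls, with a log2 fold change of 0.36 (SE 0.40).

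Partners of uptake and of the fuel switch were not called either. Of 12 tested genes of uptake, 7 were above 0 with a median of 0.07, and Vldlr, the receptor for very-low-density lipoprotein, was at 236, 283 and 240 CPM in controls and 181, 205 and 136 CPM in mutants (log2 -0.54, SE 0.18, edgeR adjusted p = 0.653). Fabp4, the binding protein of fat and endothelial cells, was at 126 to 160 CPM in controls and 166 to 242 CPM in mutants. Of 19 further switch genes, 11 were above 0 with a median of 0.02. Pdp2, a phosphatase that opposes the Pdk kinases, was at 7.54, 3.85 and 3.94 CPM in controls and 11.2, 8.10 and 8.98 CPM in mutants (log2 0.88, SE 0.30, edgeR adjusted p = 0.653), while Pdk3 and the uncoupling protein gene Ucp2 had overlapping groups. Of the 18 genes of mitochondrial content, Tomm20 was at 66.7 to 78.2 CPM in controls and 59.7 to 64.2 CPM in mutants, Sdha at 675 to 851 and 862 to 1013 CPM, and Vdac1 at 1039 to 1161 and 1104 to 1334 CPM.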

How the data were processed

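Poly(A)-selected directional libraries were read as pairs of 61 bases; each took 800 ng of RNA (integrity number 7.0 or more), per the labels' protocols. The authors deposited raw counts of read pairs per gene, as a matrix of 6 libraries and as 1 file per library with unstranded and per-strand counts. The submitters' processing notes name STAR 2.7.11b, DESeq2 1.50.2, R 4.5.2, FastQC 0.12.1, MultiQC 1.28 and build GRCm39. Which annotation release they used is not given in these sources. The matrix equalled the unstranded counts in all 57010 genes. Pairs that name no gene (18.5% to 22.3%) stayed out of library sizes.

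The authors also deposited a results table, which per the file headers holds each gene's mean signal after normalization, log2 fold change, p-values and a test score. Taken from it were the members' calls, signs and smallest adjusted p, and the share of its genes called.

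The test was edgeR 4.0.16 (R 4.3.3) on all genes of the matrix, with TMM, filterByExpr (minimum count 10), its quasi-likelihood F-test with robust dispersions and no covariates and Benjamini-Hochberg adjustment over 15589 genes, called below 0.05. CPM use TMM-scaled library sizes, and 3 counts equal 0.068 to 0.0827 CPM. Precision covers counting error and the spread of 3 animals. Alternatives were RLE and upper-quartile factors, DESeq2 1.42.0, limma 3.58.1 (voom), other filters, sex, replicate number, males only, each library left out and strand-matched counts. The script was tested on simulated data, where it recovered 19.35% of 62 genes changed 2-fold and 80.3% of 66 changed 4-fold. Symbols matched 52029 of 57010 IDs. Exon lengths and overlaps came from GENCODE M21, built on GRCm38, so no gene coordinates are given. Length is that of all annotated exons of a gene merged, so long annotated forms lower a gene's level per length. Figures used matplotlib 3.10.9.

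The members and lists were chosen with earlier results of these data known. All members are named; values by library were to be given for called members, the 14 with the smallest p, those whose groups do not overlap and the most abundant of each role, and from each pathway list up to 3 genes with the smallest p are named. Library values of other members, and Acsl4, Acsl5, Ppara, Adipoq and the strain and control 2 genes, were added after values were seen. Promoter sequences came from RefSeq (GRCm38.p6). Tmlhe matched no ID.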

Additional observations from a re-analysis of the deposited data

How the results depend on the processing

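No member was called in any of the 16 alternatives. For 2 of them, sex as a covariate and males only, this says nothing of stability. Every female was a mutant, so in both fits the group difference rests on mutant replicate 3 alone against the controls. In males only that 1 animal is assumed to vary like the controls. The median log2 fold change of the 40 members was above 0 in each of the 16, between 0.17 without control replicate 2 and 0.40 without control replicate 1. Members above 0 numbered 34 to 38 of 40. The median of the storage and lipolysis group ran from 0.15 to 0.83 when single libraries were left out. That of the uptake and activation group ran from 0.06 to 0.36, of the carnitine shuttle from 0.25 to 0.50, of beta-oxidation from 0.13 to 0.30, and of the switch and thioester group from 0.29 to 0.68. The switch and thioester median was above that of storage and lipolysis with all libraries, but below it without control replicate 1 (0.68 against 0.83). It was also below with sex as a covariate (0.42 against 0.44) and in males only (0.42 against 0.45), both of which compare mutant replicate 3 alone.

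The count of called genes depended more on the setting. It was 31 in the edgeR test, 184 in DESeq2, 79 without a filter on low counts, 0 both with sex as a covariate and in males only (edgeR, where 882 and 594 genes had an unadjusted p below 0.05), and from 6 to 49 with single libraries left out. The cause was not tested. With the replicate number as a block (replicate block) 11 genes and 0 members were called. The labels call the animals independent, and same-numbered animals did not all deviate together, the correlations of their deviations being 0.17, -0.06 and 0.18, so the numbers were not taken to pair them.

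Signs turned in 11 members, none of them called, and the other 29 kept theirs in all 16 alternatives. Acacb was at -0.0139 with sex as a covariate and -0.0112 in males only, both with mutant replicate 3 as the only mutant compared. With single libraries left out, log2 values ran from -0.107 to 0.146 for Slc27a4, -0.108 to 0.195 for Eci2, -0.0312 to 0.359 for Cd36, -0.00491 to 1.02 for Lpl and -0.0454 to 0.274 for Hadhb. They ran from -0.151 to 1.276 for Ucp3, -0.546 to 0.129 for Pnpla2, -0.111 to 0.227 for Acadl, -0.0628 to 0.187 for Etfa and -0.0301 to 0.0533 for Crat.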
